A study of Homo sapiens with 24 samples.

Results

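The thymosin beta family was examined in LNCaP cells, an established androgen-sensitive prostate cancer cell line, after siRNA transfection. The members are TMSB15A, TMSB15B, TMSB10 and TMSB4X, 4 genes of the 20992 named by RefSeq accession at 24 h and 22439 at 48 h, measured by 5 probes of the 50599 probes on the 24 h array version and the 58201 on the 48 h version. Probes were assigned through their RefSeq accession, and the family was chosen by the 24 h values of TMSB15A, whose probe separated the 2 targeting siRNAs. The siRNA si-A1 targets the long non-coding RNA TAPIR-1, si-A2 targets TAPIR-2, and a scrambled siRNA (scramble) was the control. All were delivered by microporation with no other treatment, and RNA was taken 24 h or 48 h later from 4 biological replicates of each. One-colour Agilent arrays gave 24 libraries, of which 23 were used, since the si-A2 replicate 2 array of 48 h was dim (median processed intensity 13.9, against 20.4 to 32.2 on the other 11 arrays of that time). Each lncRNA was targeted by a single siRNA on these arrays, so the siRNA and the loss of its target cannot be told apart. The time points were also run on different array versions, so levels are compared only within a time point.

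Beta thymosins are very short peptides that bind monomeric actin and keep it out of filaments. TMSB4X and TMSB10 are abundant in many cell types, and their peptides are studied for roles in cell migration, wound healing and tumour spread. TMSB15A and TMSB15B encode thymosin beta 15, first known from motile prostate cancer cells. TMSB10 lies at chr2:84905656-84906671, TMSB4X at chrX:12975110-12977223, TMSB15A at chrX:102513682-102516739 and TMSB15B at chrX:103919155-103974426 (GRCh38.p14). RefSeq also lists TMSB15C at chrX:104072887-104076236, which was not among the members examined.

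The TMSB15 paralogs have a start region in common, which is shown here as a description. A difference between the probes of these paralogs was not tested. RefSeq gives TMSB15B more than 1 start, and the second one aligns with the single TMSB15A start at 81.9% identity (212 identical positions in 259 aligned columns, 22 of them gaps). The windows run from 250 bases before to 30 after the start, in RefSeq sequence of GRCh38.p14, for TMSB15A at chrX:102516710-102516989 on the minus strand and for TMSB15B at chrX:103962377-103962656 on the plus strand. Capitals mark the motifs CCAAT and GCGGGAA, which were searched on both strands and do not overlap.
TMSB15A: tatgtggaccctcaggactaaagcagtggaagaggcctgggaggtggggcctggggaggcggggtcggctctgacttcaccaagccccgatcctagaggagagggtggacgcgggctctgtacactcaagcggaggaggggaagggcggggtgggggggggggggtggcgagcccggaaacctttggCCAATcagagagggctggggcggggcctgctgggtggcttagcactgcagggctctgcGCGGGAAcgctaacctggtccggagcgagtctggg
TMSB15B: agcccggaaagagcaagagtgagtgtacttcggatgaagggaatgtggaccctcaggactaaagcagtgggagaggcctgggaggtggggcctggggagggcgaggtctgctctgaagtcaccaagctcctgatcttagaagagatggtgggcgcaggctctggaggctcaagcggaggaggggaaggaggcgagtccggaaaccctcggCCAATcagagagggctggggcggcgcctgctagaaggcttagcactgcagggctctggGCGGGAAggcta
Both windows hold both motifs. Over all 35116 promoter windows of that length, 33.6% hold CCAAT and 6.2% hold GCGGGAA, so the matches describe the letters only. The windows of TMSB10 and TMSB4X hold neither motif, and the first TMSB15B start holds CCAAT alone.

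The labelled cell type was checked against its markers, and all 6 LNCaP genes examined (KLK3, KLK2, TMPRSS2, FOLH1, HOXB13 and STEAP2) were rated well above background on every array at both times. Of the marker genes of other cell types, 4 of 4 leukocyte and 3 of 3 endothelial probes reached that rating on every array at 24 h, while 0 of 4 fibroblast and 0 of 3 basal epithelial genes did. At 48 h the counts were 3 of 3, 2 of 3, 1 of 4 and 0 of 3. None of these markers of other cell types was called by limma in any comparison, and at most 3 of 10 or 11 had an unadjusted p under 0.05. Over all probes 0.416% to 7.8% were called, depending on the comparison. The 3 of 10 were after si-A1 at 48 h, where 12972 of 40780 probes had such a p. Their part in the thymosin values was not tested. The knockdown itself could not be established from these arrays, and the study measured it by qPCR. No probe matched TAPIR-1 by accession, and the TAPIR-2 probe that was above background stood at 5.04 ± 0.18 (SD, n = 4, log2 intensity) after scramble, 4.64 ± 0.32 (n = 4) after si-A1 and 4.07 ± 0.74 (n = 4) after si-A2 at 24 h (si-A2 against scramble, limma adjusted p = 0.229). At 48 h the same probe was not lower after si-A2 (log2 fold change 0.24 ± 0.25 SE, adjusted p = 0.66).

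A probe is called where its limma adjusted p (Benjamini-Hochberg over all probes tested at that time point) is below 0.01 and its absolute log2 fold change is at least 0.5. All 5 thymosin beta probes passed the filter on dim probes at both times and entered the fits over 43942 probes (24 h) and 40780 probes (48 h). Both siRNAs are set against the same scramble arrays, so their values are not independent. Levels below are quantile-normalized log2 intensities, which rank no gene against another.

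At 24 h TMSB15A was down to the background after si-A1 and stood much nearer to its scramble level after si-A2. The scramble arrays gave log2 intensities of 5.77, 5.53, 6.87 and 6.31 in replicates 1 to 4. After si-A1 they were 2.27, 1.68, 2.70 and 1.62. After si-A2 they were 4.93, 5.47, 5.50 and 5.65. The si-A1 arrays lay more than 2 log2 units below every other array of that time, with no overlap, while the si-A2 and scramble ranges overlapped. The order of the group means was scramble (6.12), si-A2 (5.39) and si-A1 (2.06).

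None of the 4 si-A1 arrays rated the TMSB15A spot well above background, whereas all 4 scramble and all 4 si-A2 arrays did. The si-A1 level is therefore only a bound. In these normalized values the group mean of TMSB15A was at least 5.76-fold lower than after scramble and at least 3.46-fold lower than after si-A2. These bounds set the mean of each bright group against the floor of the si-A1 arrays (mean log2 3.59), taken per array as the higher of the probe's own value and the lowest signal rated well above background. They hold for this normalization and carry no sampling error. With normexp background correction and its offset of 50, the log2 differences were smaller, at -1.03 for si-A1 against scramble and 0.66 for si-A2 against si-A1. In the fit the measured difference from scramble was -4.06 after si-A1, with the si-A1 side at background, and -0.73 after si-A2. It was -3.68 on slide 1 and -4.43 on slide 2 for si-A1. These 24 h values chose the family and carry no test here. For reading them, 1.16% of all probes were called for si-A1, 0.981% for si-A2 and 0.416% between the siRNAs at 24 h, and 9.41% of probes had si-A1 and scramble arrays that did not overlap.

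The 48 h samples did not enter that choice, and there TMSB15A fell again after si-A1. Scramble replicates 1 to 4 read 6.97, 7.24, 5.99 and 6.49 in log2 intensity. The si-A1 replicates read 3.66, 2.95, 2.16 and 2.53. The si-A2 replicates 1, 3 and 4 read 5.77, 4.30 and 5.11. All 4 si-A1 arrays were below all 3 si-A2 arrays, and these were below all 4 scramble arrays, so that no pair of groups overlapped. Across all probes, 17.1% had si-A1 and scramble arrays that did not overlap, 11.7% had si-A2 and scramble arrays that did not, and 16.1% the 2 siRNAs.

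After si-A1, TMSB15A fell by 3.85 on the log2 scale at 48 h (95% confidence interval -4.34 to -3.35, SE 0.22, limma adjusted p = 2.82e-05). This comparison called 7.8% of all probes. The fall was -3.80 on slide 1 and -3.90 on slide 2. The probe exceeded the negative control threshold (mean plus 3 SD) on 3 of 4 scramble, 1 of 4 si-A1 and 2 of 3 si-A2 arrays. All 4 scramble and all 3 si-A2 arrays rated the spot well above background. Only 1 of the 4 si-A1 arrays did, so the size of this fall rests on dim values: with normexp background correction and its offset of 50 the difference was -1.28 (adjusted p = 4.75e-06). With the dim si-A2 array kept in the fit it was -3.72 with an adjusted p of 0.0257 and was not called.

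The si-A2 arrays lay in between. TMSB15A was lower than after scramble at 48 h (log2 fold change -1.45, SE 0.24, 95% confidence interval -1.99 to -0.91), but with an adjusted p of 0.0148 it was not called, in a comparison that called 0.677% of probes. Within slides the difference was -1.33 on slide 1, which held 1 si-A2 array (replicate 1), and -1.53 on slide 2. With normexp background correction the value was -0.79 and was called (adjusted p = 0.00145). In the 48 h samples same-numbered arrays deviated together (r of 0.24 to 0.43), but so did other arrays of the same slide (0.12 to 0.39). A replicate effect beyond the slide was therefore not set apart. With the replicate number as a block in place of the slide the number of probes called for si-A2 went from 276 to 12 (TMSB15A -1.50, adjusted p = 0.0132).

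The siRNAs differed from each other for TMSB15A at 48 h too, in the direction seen at 24 h. The level after si-A2 was 2.39 log2 units above that after si-A1 (SE 0.24, 95% confidence interval 1.85 to 2.94, adjusted p = 0.00113), in a comparison that called 2.13% of probes, with 3 of the 4 si-A1 arrays not rated well above background. It was 2.47 on slide 1, again with 1 si-A2 array, and 2.36 on slide 2. With the replicate block the value was 2.35 (adjusted p = 0.00258), while the number of probes called between the siRNAs went from 869 to 379. The call was lost without the slide term (2.23, adjusted p = 0.0213), without si-A2 replicate 1 (2.33, adjusted p = 0.0132), with only both siRNA groups in the fit (2.40, adjusted p = 0.0128), with normexp (0.49, adjusted p = 0.0159) and with the dim array (1.64, adjusted p = 0.581).

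**Figure D1:**
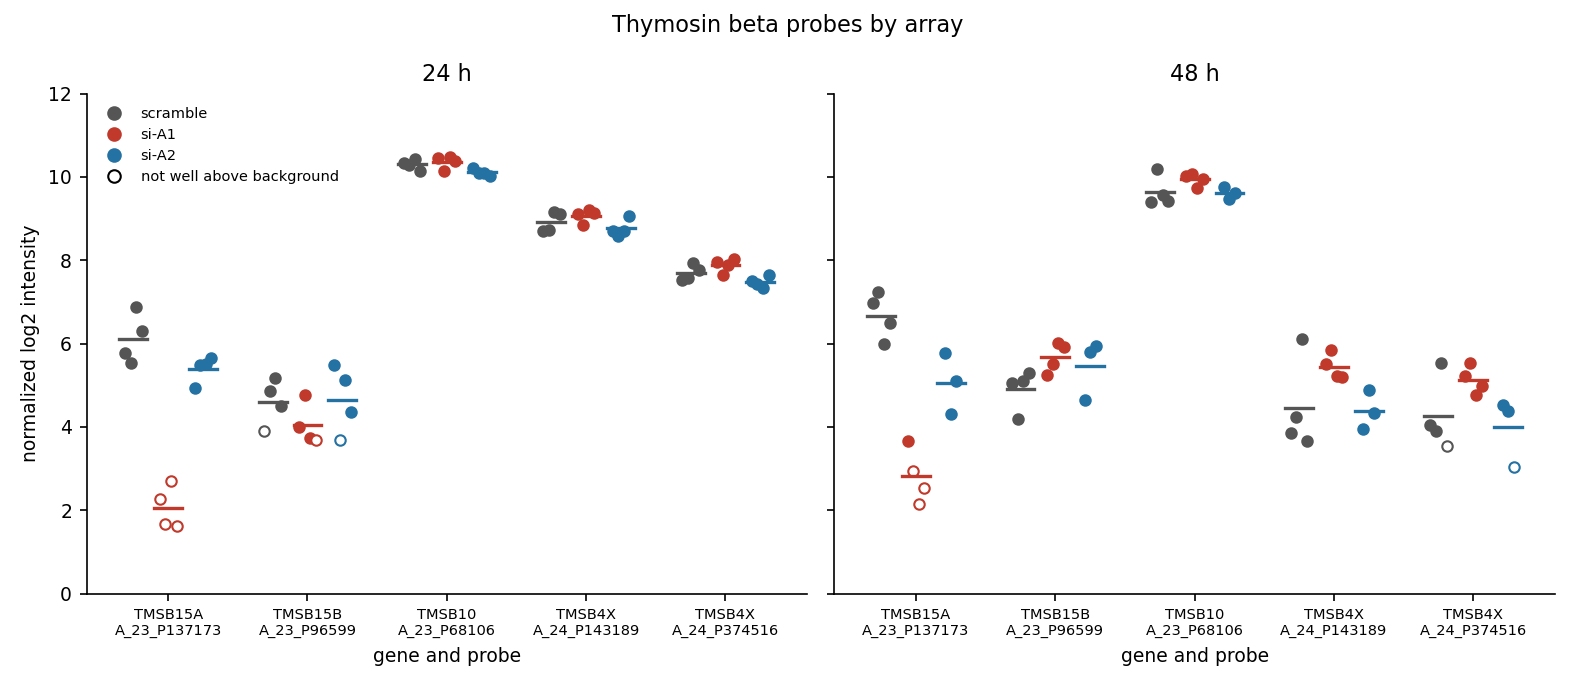
Quantile-normalized log2 intensity of each thymosin beta probe (horizontal axis) on each array at 24 h and 48 h; points are arrays, bars are group means, and open points are spots not rated well above background. The si-A1 points of TMSB15A span 1.62 to 2.70 (24 h) and 2.16 to 3.66 (48 h), below all other arrays of that probe.

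The plot of log2 intensity by array shows the si-A1 arrays of TMSB15A apart from all other arrays of that probe at both times.

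TMSB15B, the paralog with the matching start region, was not called in any comparison in which it was tested. At 24 h its scramble arrays read 3.89, 4.86, 5.18 and 4.50 in log2 intensity. The si-A1 arrays read 4.00, 4.76, 3.73 and 3.68, and the si-A2 arrays 5.48, 3.68, 5.12 and 4.35. All 3 groups overlapped, and 3 of 4 arrays in each rated the spot well above background. The log2 fold change was -0.56 after si-A1 (95% confidence interval -1.50 to 0.37, adjusted p = 0.583) and 0.05 after si-A2 (-0.88 to 0.98, adjusted p = 0.977). Between the siRNAs its value at 24 h, given without a test, was 0.61. These intervals are wide, and changes inside them could not be resolved.

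At 48 h the TMSB15B levels after si-A1 were mostly above those after scramble. The scramble arrays read 5.05, 4.19, 5.10 and 5.28, the si-A1 arrays 5.24, 5.50, 6.02 and 5.91, and the si-A2 arrays (replicates 1, 3 and 4) 4.65, 5.80 and 5.95. The highest scramble array and the lowest si-A1 array crossed by 0.04, so the groups overlapped slightly. The probe exceeded the negative control threshold on 2 of 4 scramble, 4 of 4 si-A1 and 2 of 3 si-A2 arrays. The log2 fold change of 0.76 after si-A1 (SE 0.20, 95% confidence interval 0.32 to 1.21) had an adjusted p of 0.0264 and was not called. Without scramble replicate 1 it was 0.96 and passed (adjusted p = 0.00531). After si-A2 it was 0.44 (adjusted p = 0.299), and si-A2 against si-A1 gave -0.32 (adjusted p = 0.464). The probes of both paralogs are separate features whose sequences were not analysed here, so cross-hybridization between these near copies, or with TMSB15C, was not tested.

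TMSB10, one of the widely expressed members, held a narrow range. Its scramble arrays read 10.34, 10.29, 10.43 and 10.14 at 24 h, the si-A1 arrays 10.46, 10.15, 10.48 and 10.39, and the si-A2 arrays 10.22, 10.09, 10.09 and 10.03. The groups overlapped, with SDs of 0.12, 0.15 and 0.08. Against scramble the log2 fold change was 0.07 after si-A1 (95% confidence interval -0.21 to 0.34, adjusted p = 0.847) and -0.19 after si-A2 (-0.47 to 0.09, adjusted p = 0.614).

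At 48 h TMSB10 read 9.38, 10.18, 9.57 and 9.41 after scramble, 10.01, 10.08, 9.73 and 9.96 after si-A1, and 9.77, 9.46 and 9.62 after si-A2. Scramble replicate 2 was the highest of all 11 arrays, and the groups overlapped. The log2 fold changes were 0.31 after si-A1 (-0.04 to 0.66, adjusted p = 0.215), 0.02 after si-A2 (-0.36 to 0.41, adjusted p = 0.967) and -0.29 for si-A2 against si-A1 (-0.67 to 0.10, adjusted p = 0.401). A change of 1 log2 unit in TMSB10 lay outside each of its intervals against scramble at both times.

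TMSB4X, the main actin-sequestering peptide of many cells, has 2 probes, which gave like values across arrays (Pearson r of 0.90 over 12 arrays at 24 h and 0.84 over 11 at 48 h; arrays share slides and siRNA groups). At 24 h probe A_24_P143189 read 8.69, 8.72, 9.15 and 9.11 after scramble, 9.11, 8.85, 9.20 and 9.14 after si-A1, and 8.70, 8.59, 8.70 and 9.07 after si-A2. These groups overlapped. The log2 fold changes of this probe were 0.16 for si-A1 (adjusted p = 0.617) and -0.15 for si-A2 (adjusted p = 0.699). Probe A_24_P374516 gave 0.18 (adjusted p = 0.581) and -0.22 (adjusted p = 0.567), and its si-A2 arrays (7.32 to 7.63) all lay below its si-A1 arrays (7.65 to 8.02), by a gap of 0.015 where 10.7% of probes had no overlap.

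At 48 h the spread of TMSB4X was wider, 1 control array stood apart, and both probes were dim. The scramble means were 4.46 for probe A_24_P143189 and 4.26 for probe A_24_P374516. On each probe 2 of 4 scramble, 4 of 4 si-A1 and 1 of 3 si-A2 arrays exceeded the negative control threshold. Probe A_24_P374516 was rated well above background on 3 of 4 scramble and 2 of 3 si-A2 arrays. Probe A_24_P143189 read 3.86, 4.23, 6.11 and 3.65 after scramble, 5.51, 5.85, 5.22 and 5.21 after si-A1, and 3.95, 4.89 and 4.34 after si-A2 (replicates 1, 3 and 4). Probe A_24_P374516 read 4.05, 3.91, 5.54 and 3.53 after scramble, 5.22, 5.54, 4.75 and 4.98 after si-A1, and 4.53, 4.38 and 3.05 after si-A2. On both probes scramble replicate 3 was the highest array of the time point, so the scramble and si-A1 groups overlapped. The other 3 scramble arrays were below every si-A1 array. The si-A1 and si-A2 arrays did not overlap, by gaps of 0.32 and 0.22, where 16.1% of probes had no overlap.

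The TMSB4X fits at 48 h had wide intervals, and their size turned on that array. Probe A_24_P143189 gave 0.99 after si-A1 (95% confidence interval -0.10 to 2.07, adjusted p = 0.199), with 1.64 on slide 1 and 0.33 on slide 2, the slide of that control array. Probe A_24_P374516 gave 0.86 (-0.18 to 1.91, adjusted p = 0.241), with 1.40 on slide 1 and 0.33 on slide 2. Without scramble replicate 3 the values were 1.55 (adjusted p = 0.00577, called) and 1.38 (adjusted p = 0.0135, not called). Over all alternatives the si-A1 values ran from 0.28 to 1.55 and from 0.25 to 1.38. After si-A2 the changes were -0.12 (adjusted p = 0.937) and -0.24 (adjusted p = 0.848). Between the siRNAs both probes gave -1.11, with adjusted p of 0.276 and 0.257, and neither was called. TMSB4X has many processed pseudogenes, and the study itself discarded probes with more than 1 genomic match, a step not repeated here.

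**Figure D2:**
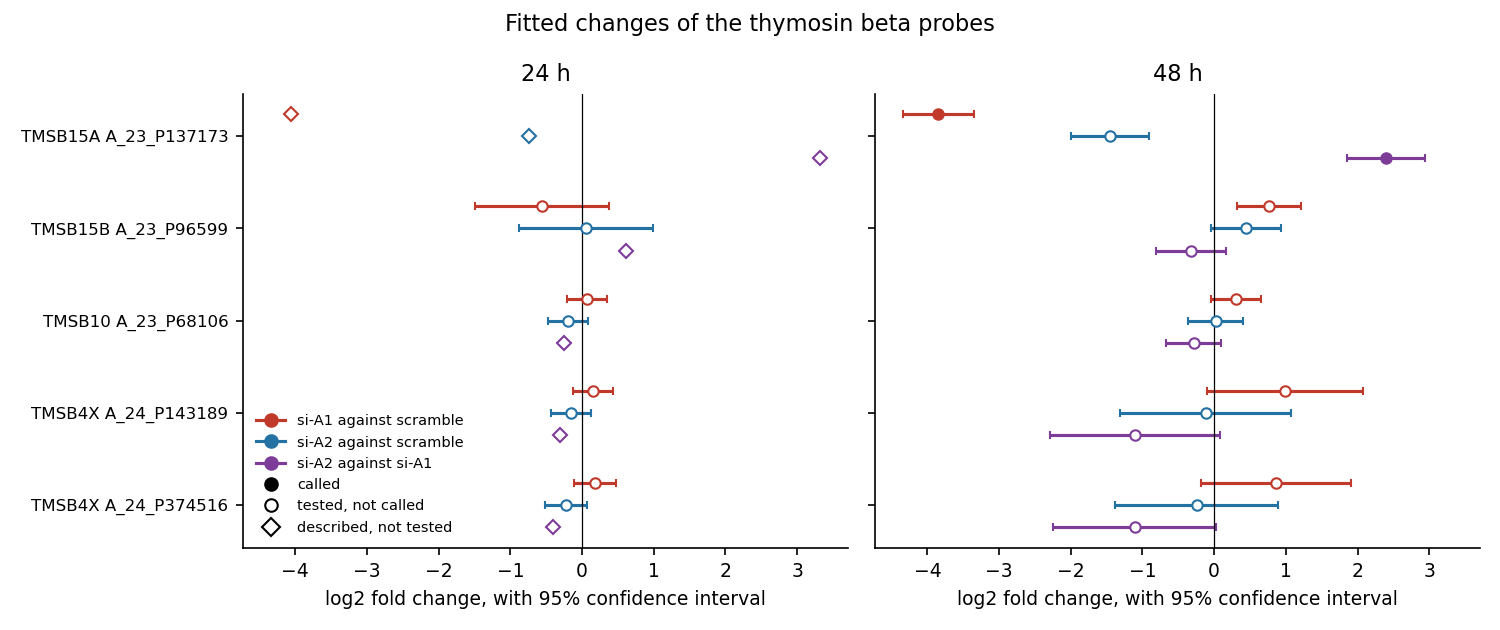
Fitted log2 fold change (horizontal axis) of each thymosin beta probe for 3 comparisons at 24 h and 48 h; bars are 95% confidence intervals, filled circles are called, open circles are tested and not called, and diamonds are values without a test. The called points are TMSB15A at 48 h, at -3.85 for si-A1 and 2.39 between the siRNAs; the intervals of TMSB4X at 48 h span about 2 log2 units.

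In the plot of fitted changes, TMSB15A stands away from 0 at both times for si-A1 and between the siRNAs, and the interval of TMSB15B at 48 h after si-A1 leaves 0 out, without a call.

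Whether the siRNA effects changed between the times was tested for TMSB15B, TMSB10 and TMSB4X over 32876 probes measured on both array versions. None of their 4 probes was called by limma for either siRNA (unadjusted p under 0.05 for 1 probe with si-A1 and 0 with si-A2), against 0.213% of probes for si-A1 and 0.0456% for si-A2. An unadjusted p under 0.05 was reached by 4603 and 2515 of the 32876 probes. The nearest was TMSB15B, whose si-A1 effect was 1.40 log2 units higher at 48 h than at 24 h (95% confidence interval 0.25 to 2.55, adjusted p = 0.242). TMSB15A is given as a description, since the 24 h values chose it, and its 24 h si-A1 level was at background. From 24 h to 48 h its si-A1 effect changed by 0.76 log2 units and its si-A2 effect by -0.70. The si-A1 change was 0.0918 with 75th percentile scaling and turned to -0.27 with normexp. These fits normalized the arrays of both times together. The separate fits gave si-A1 effects of -4.06 at 24 h and -3.85 at 48 h, so the size of this change depends on the normalization.

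The genes whose 24 h pattern was most like that of TMSB15A shared its split between siRNAs. Ranked by Pearson r over the 12 arrays among 19255 genes (1 probe a gene), the first 6 were DHX15 (0.99), an RNA helicase of the spliceosome, then DESI2, CCDC28A, CDS2, ZNF468 and PURB (0.98 each). CDS2 makes CDP-diacylglycerol for phospholipid synthesis, ZNF468 is a zinc finger protein and PURB binds purine-rich single-stranded nucleic acid. In each of these genes the 4 si-A1 arrays stood below the other 8, so each r follows that split. The measured si-A1 differences at 24 h were -1.09 for DHX15, -1.84 for DESI2, -2.50 for CCDC28A, -1.12 for CDS2, -0.80 for ZNF468 and -1.89 for PURB, all smaller than that of TMSB15A, and the si-A2 differences lay between -0.42 and -0.14.

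At 48 h, in samples that had no part in that ranking, the genes gave r of 0.68 to 0.92 with TMSB15A over 11 arrays, highest for DHX15 and PURB. All 6 were called lower after si-A1, from -0.59 for ZNF468 (adjusted p = 0.00399) to -1.72 for PURB (adjusted p = 5.12e-05), where 4.65% of probes were called lower. After si-A2 none of them was called by limma (2 with an unadjusted p under 0.05), against 0.677% of probes, with values from -0.51 (DHX15, adjusted p = 0.0269) to 0.06 (CCDC28A, adjusted p = 0.878). An unadjusted p under 0.05 was reached by 7967 of all 40780 probes in that comparison. Between the siRNAs DHX15 (0.92, adjusted p = 0.00153), CCDC28A (1.12, adjusted p = 0.00316) and PURB (1.22, adjusted p = 0.00212) were called higher after si-A2, where 1.42% of probes were. CDS2 gave 1.11 (adjusted p = 0.0118), and DESI2 and ZNF468 gave 0.51 (adjusted p = 0.166) and 0.47 (adjusted p = 0.0334). Without si-A2 replicate 1 the 3 calls between the siRNAs were lost, for DHX15 (0.88, adjusted p = 0.018), CCDC28A (1.18, adjusted p = 0.0223) and PURB (1.17, adjusted p = 0.0212). In all, leaving out 1 array lost this call of DHX15 in 1, of CCDC28A in 5 and of PURB in 2 of 11 fits. With the replicate block CCDC28A (adjusted p = 0.0148) and PURB (adjusted p = 0.0106) were not called between the siRNAs, and DESI2 was not called for si-A1 (adjusted p = 0.0239). Leaving out 1 array lost the si-A1 call of DESI2 in 10 and of ZNF468 in 5 of 11 fits, and of the other 4 genes in 0.

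**Figure D3:**
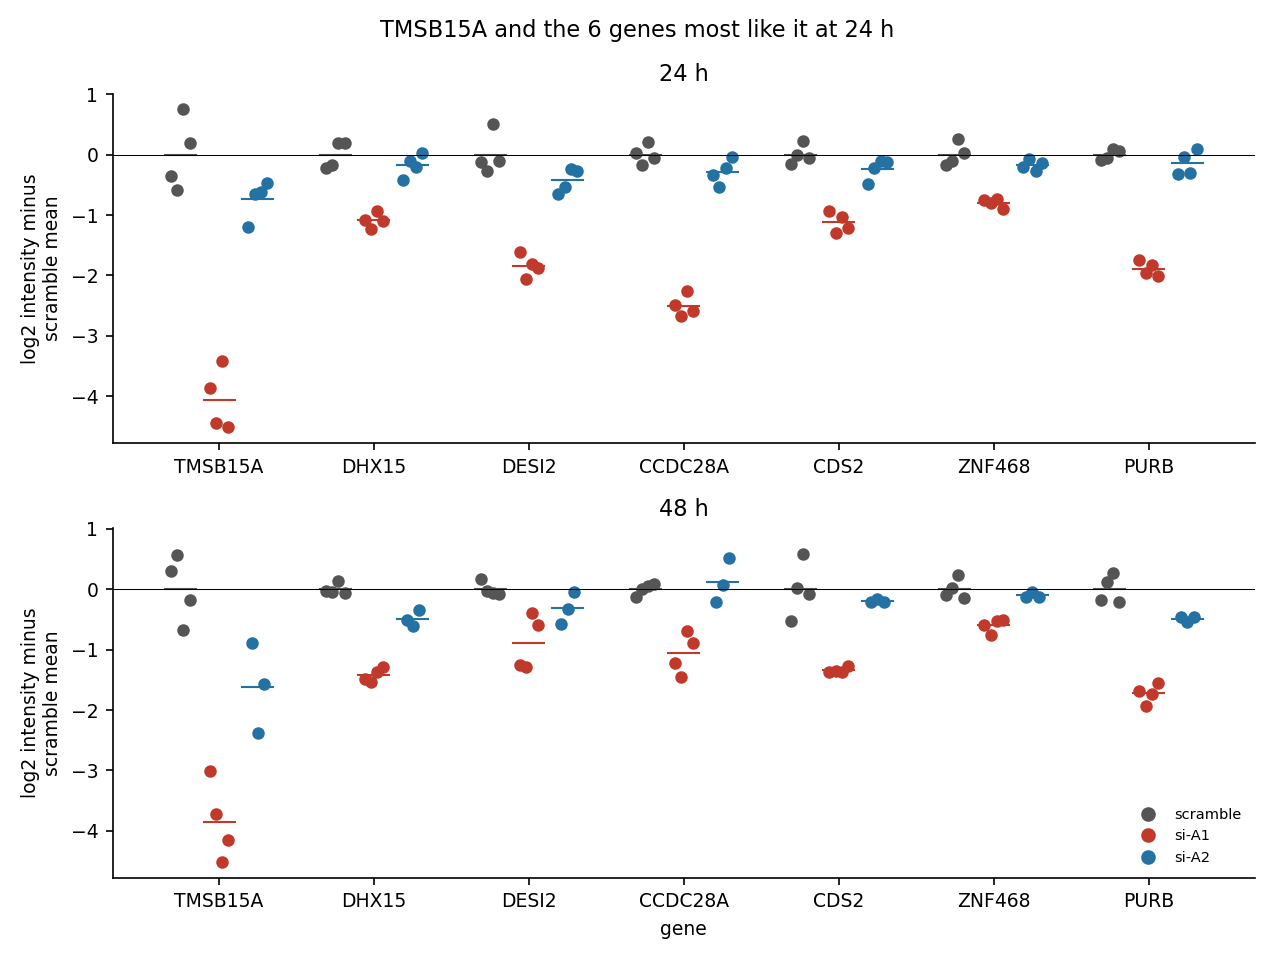
Log2 intensity minus the scramble mean of the same time (vertical axis) for TMSB15A and the 6 genes closest to it by correlation at 24 h; points are arrays and bars are group means. The si-A1 points lie below the si-A2 points for every gene at 24 h, and the si-A1 mean of TMSB15A is the lowest at both times.

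The plot of the genes most like TMSB15A shows narrow si-A1 groups for DHX15, CDS2, ZNF468 and PURB at 48 h, and si-A1 points of DESI2 that reach up to its si-A2 points.

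Neighbouring genes were measured for comparison with the TMSB15A locus. RefSeq places 14 other genes with a start within 500 kb, 12 of them protein-coding. At 24 h, 10 were above background and 0 were called for either siRNA by limma (2 with an unadjusted p under 0.05 for each), with si-A1 values from -0.57 to 0.58. Of all 43942 probes, 1.16% were called for si-A1 and 0.981% for si-A2, and 5816 and 5218 had an unadjusted p under 0.05. At 48 h, 9 were above background and 2 were called after si-A1, both higher: TCEAL2 by 0.85 (adjusted p = 0.00746) and GPRASP1 by 0.84 (adjusted p = 0.00482), where 3.15% of probes were called higher. Leaving out 1 array lost the call of TCEAL2 in 8 and of GPRASP1 in 6 of 11 fits. GPRASP1 encodes a protein that sorts G protein-coupled receptors to lysosomes.

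The genes around thymosin beta in actin turnover were followed in 7 lists, which hold actins, actin monomer-binding proteins, severing and capping proteins, nucleators, SRF and MRTF with their targets, thymosin beta 4 partners and peptide enzymes, and the unrelated prothymosins. Of the 67 genes above background at 24 h in the lists other than the prothymosins, 2 were called after si-A1, 1 after si-A2 and 1 between the siRNAs, where 1.16%, 0.981% and 0.416% of all probes were called. Of the 63 at 48 h the counts were 7, 1 and 2, where the shares of all probes were 7.8%, 0.677% and 2.13%. Of the 2 prothymosins, 1 was called, after si-A1 at 48 h.

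Among the actins ACTB, the main cytoplasmic form, gave log2 fold changes of 0.45 for si-A1 (adjusted p = 0.317) and 0.26 for si-A2 (adjusted p = 0.64) at 24 h. At 48 h a different ACTB probe was the brightest, so the values of both times are not the same measurement. It gave -0.20 (adjusted p = 0.543) and -0.19 (adjusted p = 0.688). ACTA2, smooth muscle actin, was the 1 actin of 6 called: it rose by 1.33 after si-A1 at 24 h (adjusted p = 0.00964) and by 2.69 at 48 h (adjusted p = 0.00163), with 2.32 after si-A2 at 48 h not called (adjusted p = 0.0184). The si-A1 comparisons called 1.16% of all probes at 24 h and 7.8% at 48 h. The 24 h call of ACTA2 was lost in 11 of 12 fits that left out an array (1.19 to 1.46), while at 48 h all 11 such fits kept it. At 48 h the ACTA2 spot was rated well above background on 8 of 11 arrays, and its si-A1 call was lost with normexp (0.45) and with the dim si-A2 array (2.63, adjusted p = 0.113). The median of the 6 actins was 0.64 after si-A1 at 24 h and 0.16 at 48 h, beside 0.05 and 0.06 over all probes tested. These medians rest in part on dim probes. ACTA1 was rated well above background on 2 of 12 arrays at 24 h and 1 of 11 at 48 h. ACTC1 reached that rating on 1 of 12 and 4 of 11.

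Of the actin monomer-binding proteins, which compete with thymosins for the same pool, 0 of 10 were called by limma for either siRNA at 24 h (2 and 1 with an unadjusted p under 0.05), with medians of 0.18 after si-A1 and -0.09 after si-A2. All probes were called at 1.16% and 0.981%, and 5816 and 5218 of 43942 had an unadjusted p under 0.05. CFL1, the filament-severing cofilin, gave -0.10 (adjusted p = 0.79) and -0.06 (adjusted p = 0.905). At 48 h TWF2, a twinfilin, and CAP2, a cyclase-associated protein, rose after si-A1 by 0.60 (adjusted p = 0.00514) and 1.00 (adjusted p = 0.000407), 2 of 8 measured. In that comparison 3.15% of all probes were called higher. The call of TWF2 was lost in 7 of 11 fits that left out an array and that of CAP2 in 0. DSTN, which depolymerizes filaments, stood 0.60 above its si-A1 level after si-A2 (adjusted p = 0.00725). With the replicate block DSTN was not called (0.61, adjusted p = 0.0262), nor in 10 of 11 fits that left out an array, and keeping the dim si-A2 array turned it to -0.79.

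The nucleators, which start new filaments, included genes that fell. ARPC1B, a subunit of the branching Arp2/3 complex, fell after si-A1 by 1.22 at 24 h (adjusted p = 0.000492) and by 0.74 at 48 h (adjusted p = 0.00177), and stood above its si-A1 level after si-A2 by 1.05 (adjusted p = 0.00343) and 1.03 (adjusted p = 0.00184). Of these ARPC1B calls, that between the siRNAs at 24 h was lost in 8 of 12 fits that left out an array, and that at 48 h without si-A2 replicate 1 (0.93, adjusted p = 0.019). The formin DIAPH3 fell after si-A2 at 24 h by 1.03 (adjusted p = 0.00253), a call lost in 4 of 12 fits that left out an array, while its si-A1 value of -0.82 missed the threshold (adjusted p = 0.0104). At 48 h the falls of DIAPH3 were -1.36 for si-A1 (adjusted p = 7.08e-05) and -0.84 for si-A2 (adjusted p = 0.00812). The si-A2 call of DIAPH3 at 48 h was lost with the replicate block (-0.87, adjusted p = 0.0166) and in all 11 fits that left out an array. The formin DIAPH1 and SPIRE2 also fell after si-A1 at 48 h, by 0.81 (adjusted p = 0.00514) and 0.69 (adjusted p = 0.00532), making 4 of 22 nucleators. In that comparison 4.65% of all probes were called lower. With the replicate block DIAPH1 was not called (adjusted p = 0.0131), and leaving out 1 array lost the call of DIAPH1 in 6 and of SPIRE2 in 6 of 11 fits. The median of the nucleators stayed at -0.10 and -0.03 after si-A1.

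No gene of the severing and capping proteins, of the SRF and MRTF list or of the thymosin beta 4 partners (ILK, LIMS1, PARVA and the peptide-cutting enzymes PREP, MEP1A and ACE) was called by limma at either time. Their unadjusted p against scramble was under 0.05 at 24 h for 8 of 29 genes with si-A1 and 1 with si-A2. At 48 h these counts were 11 and 7 of 27. Over all probes, 5816 and 5218 of 43942 reached such a p at 24 h, and 12972 and 7967 of 40780 at 48 h. Of all probes, 1.16% were called for si-A1 and 0.981% for si-A2 at 24 h, and 7.8% and 0.677% at 48 h. Of the prothymosins, PTMA fell by 0.64 after si-A1 at 48 h (adjusted p = 0.00821), measured by the brightest of its 6 probes. The PTMA call was lost with the replicate block (adjusted p = 0.0158) and in 10 of 11 fits that left out an array, and PTMA too has many pseudogenes. Of the 6 LNCaP markers 1 was called after si-A1 at 48 h, KLK2, which fell by 1.04 (adjusted p = 0.000767). In that comparison 4.65% of all probes were called lower. This si-A1 call of KLK2 was lost without the slide term (adjusted p = 0.0733) and with the dim si-A2 array. KLK2 was also 0.91 above its si-A1 level after si-A2 and lost that call with the replicate block (adjusted p = 0.0189) and in 9 of 11 fits that left out an array.

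**Figure D4:**
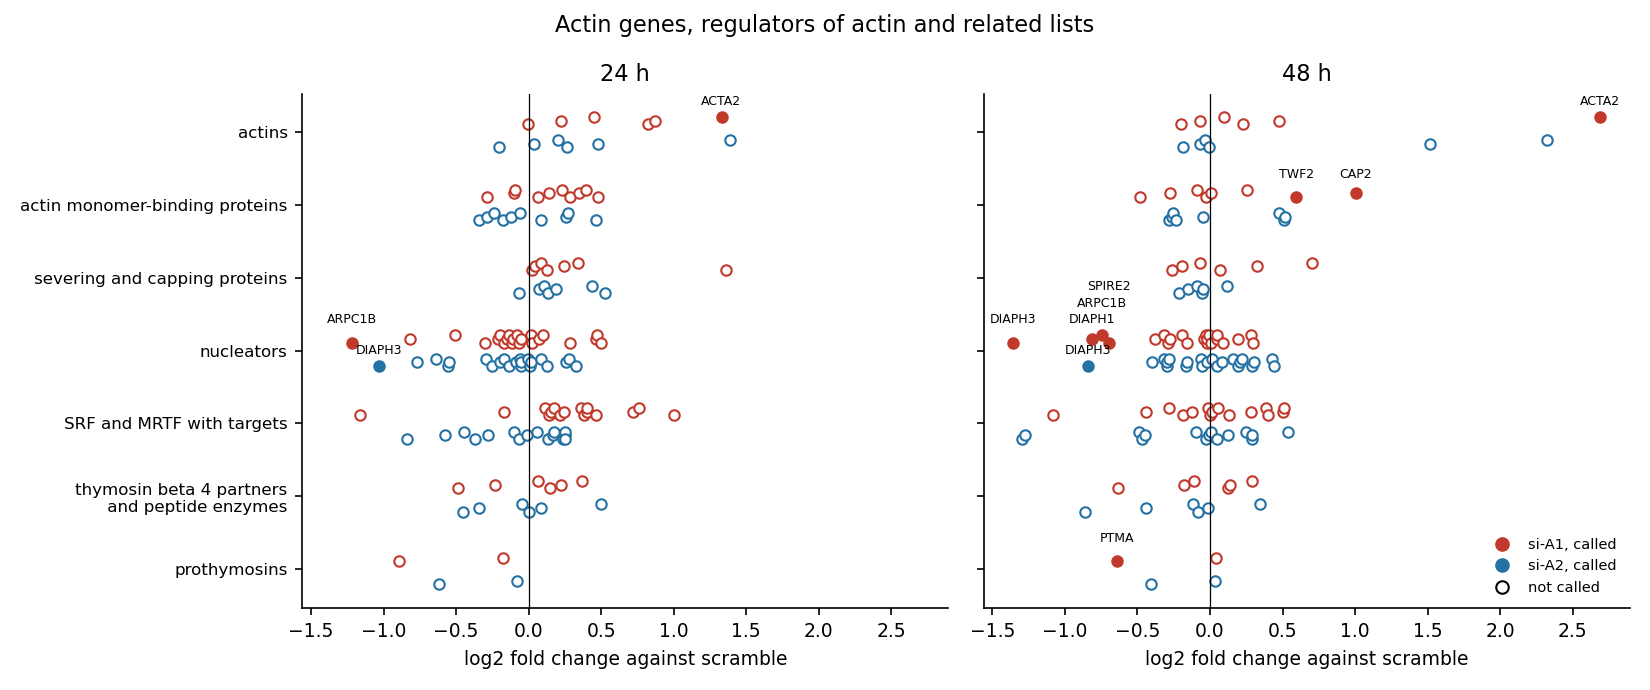
Log2 fold change against scramble (horizontal axis) of each list gene above background, by its brightest probe, at 24 h and 48 h; red is si-A1, blue is si-A2, and filled points are called and named. ACTA2 reaches 2.69 after si-A1 at 48 h, and DIAPH3 -1.36.

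The plot of the actin lists shows most genes within 0.5 of 0 in both directions, with ACTA2 farthest to the right at 48 h for both siRNAs.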

How the data were processed

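RNA of LNCaP cells was hybridized to one-colour Agilent 8x60K arrays, version 2 for 24 h and version 3 for 48 h, with 12 arrays on 2 slides per time point and 4 biological replicates per siRNA. The deposited scanner files hold the intensity of each spot, processed by the scanner software (background-subtracted), with its quality flags. The authors also deposited log2 values that they had quantile-normalized between arrays, which served as an alternative. The submitters' notes name R 3.4.3 and limma 3.34.8.

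Here the processed intensity was log2-transformed and quantile-normalized within each time point (R 4.3.3, limma 3.58.1). Control spots were left out, spots marked as non-uniform or as population outliers were set to missing, and repeated spots were averaged. Probes entered the tests where at least 3 arrays exceeded the mean plus 3 SD of 308 negative controls and where they had a value on all arrays but at most 1. A linear model with siRNA and slide was fitted with limma (lmFit, eBayes) over all arrays of a time point, with Benjamini-Hochberg adjustment over all probes tested. The interquartile filter of the study's methods (0.5) became an alternative, since it removes members that vary little. Probes were named through RefSeq accessions (GRCh38.p14), which gave a gene for 57.4% of probes at 24 h and 53.4% at 48 h. Where genes have several probes, list genes are given by the brightest one above background at each time point, which can be a different probe at each. Changes of an effect between times were fitted over 32876 probes with 23 arrays normalized together.

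The number of arrays limits the precision, and intensities have no counting depth. On the arrays used the median processed intensity was 24.4 to 57.2 at 24 h and 20.4 to 32.2 at 48 h, 58.5% to 71.7% and 60.3% to 66.5% of probes were rated well above background, and no spot of these arrays was saturated. The dim si-A2 array of 48 h correlated with the others of its time at a Spearman rho of 0.58 to 0.64. The genes named are all member probes, called list genes, the 6 genes most correlated with TMSB15A and called neighbours within 500 kb. Some marker genes are not reported here. The members and lists were chosen with earlier results of these data known. The alternatives were 75th percentile scaling, normexp with an offset of 50, the authors' values, the slide left out or as a random block, a replicate block, other filters, fits of only the groups compared, the dim array kept, and each replicate left out in turn. At 48 h same-numbered arrays deviated together (r of 0.24 to 0.43 over 10 pairs; 0.12 to 0.39 for other arrays of the same slide), so blocked values stand beside 48 h results there. The fit was tested on simulated data. Promoters were searched with Python scripts.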

Additional observations from a re-analysis of the deposited data

How the results depend on the processing

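With si-A1 at 48 h TMSB15A kept its direction and its call under every alternative except the dim si-A2 array, which gave -3.72. Its difference between the siRNAs at 48 h stayed positive but lost the call in 5 alternatives, at 2.23 without the slide term, 2.40 with only the groups compared, 0.49 with normexp, 1.64 with the dim array and, of 11 fits without 1 replicate (2.20 to 2.64), without si-A2 replicate 1. After si-A2 at 48 h the call was gained with normexp (-0.79). At 24 h, with no test, normexp moved the si-A1 value of TMSB15A from -4.06 to -1.03 and that between the siRNAs from 3.32 to 0.66. The change of its si-A1 effect between times, also untested, went from 0.76 to 0.0918 with 75th percentile scaling and to -0.27 with normexp.

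Small values of the other members changed sign too. With the dim array TMSB15B gave 0.98 between the siRNAs at 48 h, TMSB10 -0.65 for si-A2 at 48 h and -0.42 for its change between times, probe A_24_P143189 of TMSB4X -0.71 for that change, and probe A_24_P374516 0.0617 for si-A2 at 48 h. TMSB10 after si-A2 at 48 h was -0.0183 without the slide term. For the change of the si-A2 effect between times, probe A_24_P143189 gave -0.0035 with 75th percentile scaling and -0.0461 with only the groups compared, and probe A_24_P374516 -0.0251 with the authors' values, -0.006 without the slide term and -0.0116 with only the groups compared. DSTN between the siRNAs at 48 h was -0.79 with the dim array. Without 1 replicate the ranges that crossed 0 were -0.26 to 0.42 for TMSB15B with si-A2 at 24 h and -0.0108 to 0.75 for its change between times, -0.10 to 0.16 for TMSB10 with si-A2 at 48 h, and for the TMSB4X probes -0.53 to 0.52 and -0.56 to 0.35 with si-A2 at 48 h and -0.35 to 0.64 and -0.25 to 0.57 for the change between times.

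The counts of probes called depended on the fit, given here as si-A1, si-A2 and the difference of the siRNAs at 24 h (509, 431 and 183 in the report's setting), then at 48 h (3180, 276 and 869), then the changes of both effects between times (70 and 15), naming those that moved by over 1.5 times. With the interquartile filter the 24 h counts were 290 for si-A1 and 35 between the siRNAs, and 43 for the si-A1 change. With only the groups compared they were 176, 193 and 31 at 24 h, 0 for si-A2 and 192 between the siRNAs at 48 h, and 16 and 8 for the changes. Normexp gave 409 between the siRNAs at 24 h, at 48 h 2013 for si-A1 with 591 for si-A2, and 197 for the si-A1 change. Without the slide term the 48 h counts were 1665, 132 and 411. Without the dim-probe filter they were 112 for si-A2 and 572 between the siRNAs at 48 h, and 9 for the si-A2 change, which was also 9 with the authors' values and 7 with 75th percentile scaling. The stricter dim-probe filter gave 299 between the siRNAs at 24 h. With the dim array kept the counts were 36, 0 and 0 at 48 h and 0 and 0 for the changes. Without 1 replicate they ran from 266 to 443, 281 to 408 and 34 to 356 at 24 h, from 1692 to 3395, 1 to 141 and 109 to 887 at 48 h, and from 13 to 93 and 3 to 25 for the changes.

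With the replicate number as a block the counts were 332 for si-A1 and 56 between the siRNAs at 24 h, and 12 and 379 for si-A2 and between the siRNAs at 48 h. At 24 h same-numbered arrays did not deviate together (r of -0.15 to 0.16 over 12 pairs), so there they share only a number. At 24 h the block took the calls of ACTA2 for si-A1 (adjusted p = 0.0185), DIAPH3 for si-A2 (adjusted p = 0.0123) and ARPC1B between the siRNAs (adjusted p = 0.0134). It changed no call of a member, and beyond those given in the report no other call of a named gene.

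The 28 calls of other named genes held in 410 of 612 values, with 201 below the threshold and 1 reversed. With the dim array kept, all 48 h calls of these genes were lost. The interquartile filter removed TMSB10 at both times and TMSB4X at 24 h, so these have no value there. The number of arrays, the background floor of TMSB15A after si-A1 and the array version tied to each time limit these values.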
